A study of Mus musculus with 29 samples.

Results

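RNA of photoreceptors and of Müller glia was followed through 29 libraries, each made from the soma of a single retinal ganglion cell (RGC). The genes were 9 rod genes, 11 genes that rods and cones share, 6 cone genes and 8 genes listed for Müller glia. All 34 had a probe set that names a single gene, among 18194 genes with a value. The donors were adult mice of the strain given as C57BL/6 in the labels and as C57BL/6J in the methods. Each RGC was recorded in the flat-mounted retina, classified by its light responses, and its soma was aspirated with a glass pipette. The labels gave 4 ON direction-selective (ON DS), 4 ON-OFF DS, 1 vertical (ON vOS) and 1 horizontal (ON hOS) orientation-selective cell. Alpha RGCs comprised 2 ON alpha, 4 OFF sustained (OFF S alpha) and 3 OFF transient (OFF T alpha) cells. The other 10 were a pair of suppressed-by-contrast (SbC) cells and single cells labelled PixON, LED (local edge detector), EyeWire 4i, J-RGC, ON S non-alpha, EyeWire 6sn, OFF high speed selective and EyeWire 6sw. A cell is named by its subtype and a running number (1 to 29).

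Every library was hybridized to its own Affymetrix array. A gene was called detected at a MAS5 signal of 3000, which is 2 times the trimmed mean of 1500 that all arrays shared. Log2 signals were given a floor of 8.55 (a signal of 375), and the score of a gene list is the mean log2 signal of its genes in a cell. The number of detected genes, which stands for depth, ran from 1182 in SbC 26 to 4201 in EyeWire 6sw 21 with a median of 2908. A library is 1 cell, and the animal behind each cell is not named, so no test was made between groups of cells. RNA made by the recorded RGC and RNA drawn in from other cells cannot be told apart in a library.

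Rods and cones turn light into a fall of cyclic GMP: an activated visual pigment drives transducin, transducin drives a phosphodiesterase, and cyclic nucleotide-gated channels close. Their identity rests on transcription factors, chiefly *Crx* in both cell types and *Nrl* in rods. Müller glia span the retina from the photoreceptors to the ganglion cell layer and take up glutamate, potassium and water. RGCs lie at the inner surface of the retina, away from the photoreceptor layer, and send the retina's output to the brain.

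Of the 9 rod genes 7 were detected in at least 15 of the 29 libraries, against 10.6% of all 18194 genes, and each had libraries both far above and far below the threshold. *Gnat1*, the transducin alpha subunit of rods, had a lowest signal of 3.77, a median of 200910 and a highest signal of 1252820, and it was detected in 19 of the 29 cells. *Sag*, the rod arrestin, was detected in 18 cells, with signals from 4.65 to 895233 and a median of 112270. *Nrl*, the transcription factor of rod fate, was detected in 20 cells (2.15 to 863383, median 51826). For all 3 genes the highest library was SbC 26. *Pde6g*, *Pde6b* and *Pde6a*, the gamma, beta and alpha subunits of the rod phosphodiesterase, were detected in 18, 14 and 12 cells. *Cnga1*, the rod channel subunit, was detected in 15 cells, *Reep6*, an endoplasmic reticulum protein of rods, in 19, and *Guca1b*, a guanylate cyclase activator, in 18.

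These genes rose and fell as a block. A set of 5 or more rod genes was found in 17 of the 29 cells (58.6%, exact 95% Clopper-Pearson interval 38.9% to 76.5%, counting error only). All 9 were found in 11 cells and none in 7 cells, which were ON DS 2, ON DS 4, ON-OFF DS 5, ON hOS 10, J-RGC 11, OFF T alpha 20 and EyeWire 6sn 22. Over the 36 pairs of rod genes the mean Pearson r of log2 signals was 0.86 (n = 29 cells). The closest pair was *Sag* with *Pde6g* at r = 0.99 and the loosest was *Pde6a* with *Reep6* at r = 0.65. Each gene of the list had r of at least 0.77 with the mean of the other 8. These correlations describe libraries that share amplification and scaling.

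Signals of 5 of the 9 rod genes, *Gnat1*, *Sag*, *Pde6g*, *Nrl* and *Guca1b*, did not overlap between the 17 cells and the other 12. Of the 7113 genes detected in at least 3 cells, these 5 included, 0.183% had every signal of the 17 above every signal of the 12. Since rod genes defined that split, the lack of overlap is a description of it. In the 17 cells *Gnat1* ran from 154345 to 1252820 and in the other 12 from 3.77 to 94834. Partial sets were seen at the border. ON-OFF DS 8 had *Gnat1* at 67957 and *Nrl* at 21103 with *Sag* at 22.2, and OFF S alpha 15 had *Gnat1* at 94834 and *Sag* at 36567 with *Nrl* at 50.03. Single rod genes were also missing from libraries that held the others. *Pde6a* was not detected in ON-OFF DS 7, OFF T alpha 19, EyeWire 4i 24, SbC 25 and PixON 27, and *Pde6b* was not detected in OFF S alpha 16, OFF T alpha 19 and EyeWire 4i 24.

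**Figure D1:**
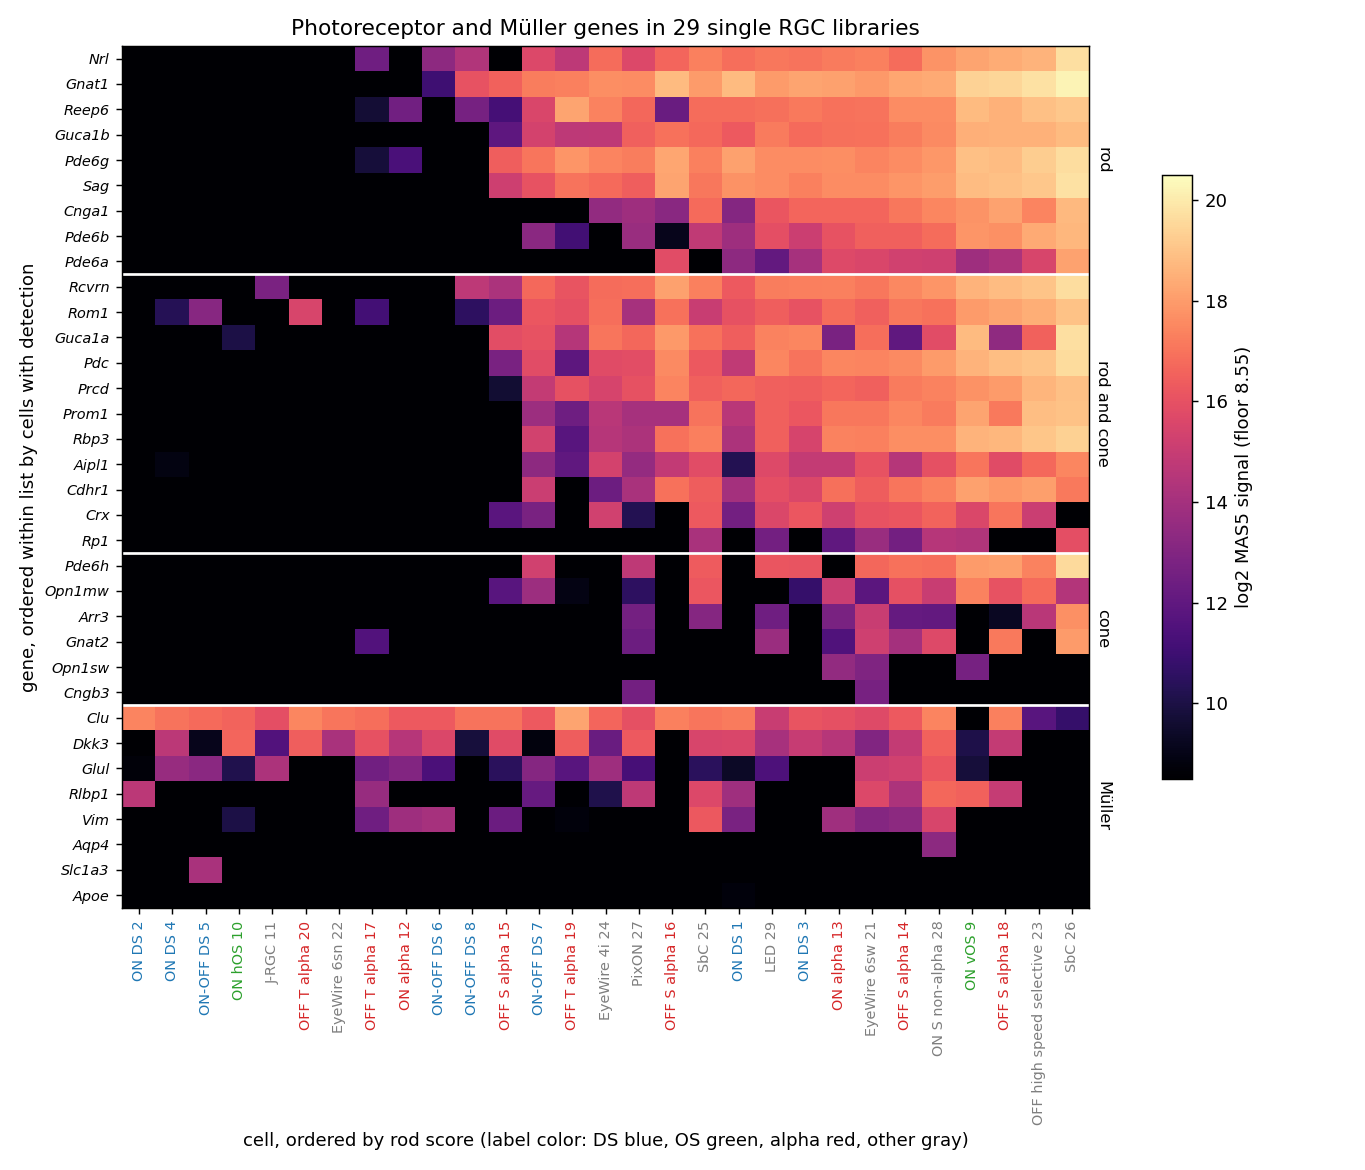
Log2 MAS5 signals (color, floor 8.55) of the 34 genes (vertical axis, grouped by list) in the 29 cells (horizontal axis, ordered by rod score, label color by class). Rod and shared photoreceptor genes fill the right side together, cone genes appear there in patches, and *Clu* is bright in nearly all columns, also in the 7 cells with no rod gene.

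Genes shared by rods and cones followed the rod genes. *Rcvrn*, the calcium sensor recoverin, and *Rom1*, a disc membrane protein, were detected in 20 cells each. *Pdc*, the transducin-binding phosducin, and *Guca1a*, a cyclase activator, were detected in 18 cells each. *Rbp3*, the retinoid-binding protein of the space around photoreceptors, *Prom1*, which shapes outer segment discs, and *Prcd*, a small disc protein, were found in 17 cells each, and all 3 only within the 17 cells with at least 5 rod genes. *Aipl1*, a chaperone of the phosphodiesterase, and *Cdhr1*, a photoreceptor cadherin, were detected in 16 cells each. *Rp1*, a protein of the outer segment axoneme, was found in 8.

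The shared list had r = 0.98 with the rod score over the 29 cells (Spearman rho = 0.93), 0.87 within the 17 cells and 0.82 within the other 12. Of the 20 rod and shared genes, 17 to 20 were detected in 16 cells and 0 or 1 in 10 cells. The 3 cells in between were ON-OFF DS 8 with 4 genes, OFF S alpha 15 with 9 and OFF T alpha 19 with 14. Libraries were thus nearly full or nearly empty for these genes, although the largest gap in the sorted rod score was 2.43 of a range of 10.66 and marked no clear break. *Rp1* and *Crx*, the homeobox factor of photoreceptors, had the lowest r with the rod score in the shared list, 0.61 and 0.77. *Rp1* had a signal of 50.8 in OFF S alpha 18 and of 205 in OFF high speed selective 23, both rich in rod genes. *Crx* was detected in 14 cells (2.90 to 136169, median 1233), but its signal was 195 in SbC 26, which had the highest rod score, and 10.8 in OFF S alpha 16. Its other probe set was detected in 11 cells, 10 of them shared with the one read here.

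The upstream sequences of a few of these genes are shown because *Crx* and *Nrl* are themselves members. Whether their motifs bear on the way these genes moved together over the libraries was not tested. Promoters came from RefSeq on build GRCm38.p6, read as the 250 bases before the annotated start, 5′ to 3′. Capitals mark the motif letters TAATCC or, on the other strand, GGATTA, a core that Crx binds, and TGCTGA or TCAGCA, which belongs to the Nrl recognition element. The 2 motifs did not overlap in the sequences printed. The positions are chr1:87803430-87803679 on the plus strand for *Sag*, chr14:33953753-33954002 on the plus strand for *Rbp3*, chr11:72037510-72037759 on the minus strand for *Aipl1*, chr7:15879956-15880205 on the minus strand for *Crx* and chr1:153899679-153899928 on the plus strand for *Glul*.
Sag: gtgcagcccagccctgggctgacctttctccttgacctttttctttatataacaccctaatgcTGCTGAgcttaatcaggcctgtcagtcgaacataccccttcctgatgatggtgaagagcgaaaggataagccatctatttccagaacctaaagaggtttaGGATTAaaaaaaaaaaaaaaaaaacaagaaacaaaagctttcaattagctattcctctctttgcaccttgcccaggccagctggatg
Rbp3: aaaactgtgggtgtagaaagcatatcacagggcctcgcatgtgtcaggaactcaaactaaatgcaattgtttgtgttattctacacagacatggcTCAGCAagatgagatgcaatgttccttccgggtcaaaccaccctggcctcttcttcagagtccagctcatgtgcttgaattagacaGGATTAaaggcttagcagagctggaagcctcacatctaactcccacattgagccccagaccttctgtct
Aipl1: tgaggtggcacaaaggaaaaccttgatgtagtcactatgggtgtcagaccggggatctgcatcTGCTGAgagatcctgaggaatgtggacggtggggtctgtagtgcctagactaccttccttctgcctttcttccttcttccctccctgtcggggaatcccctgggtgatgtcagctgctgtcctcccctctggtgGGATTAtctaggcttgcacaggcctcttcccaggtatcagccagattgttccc
Crx: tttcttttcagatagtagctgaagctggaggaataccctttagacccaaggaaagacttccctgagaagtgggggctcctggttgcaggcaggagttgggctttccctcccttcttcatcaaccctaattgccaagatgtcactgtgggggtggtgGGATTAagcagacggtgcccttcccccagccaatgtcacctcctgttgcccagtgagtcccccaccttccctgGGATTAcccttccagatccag
Glul: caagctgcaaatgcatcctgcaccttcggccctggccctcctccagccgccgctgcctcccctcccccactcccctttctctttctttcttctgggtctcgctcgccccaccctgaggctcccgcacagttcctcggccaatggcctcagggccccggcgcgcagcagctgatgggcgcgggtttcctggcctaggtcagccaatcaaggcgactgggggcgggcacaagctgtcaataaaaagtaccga
*Sag*, *Rbp3* and *Aipl1* each held both motifs, and no other of the 13 rod and shared genes read did. The printed sequences are thus not typical of these lists. *Crx* held the TAATCC core at 2 places and no TGCTGA, and the Müller gene *Glul* held neither. Neither motif was found for *Nrl*, *Pdc*, *Prcd*, *Prom1*, *Rom1* and *Cdhr1*, while of the Müller genes *Apoe* held TAATCC in 1 of its promoters and *Rlbp1* held TGCTGA. Among the 14 promoters read for 13 rod and shared genes, 6 (42.9%) held TAATCC, against 6.25% of all 32851 promoters of this length. TGCTGA was in 4 (28.6%), against 16.1% of all promoters. Of the 5 promoters of cone genes 1 (20%) held each motif, and of the 7 promoters of Müller genes 1 (14.3%) held each motif. A match is a description and not a site, and no match says only that these letters are not in this window. *Gnat1* had no entry in the table read here.

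Cone genes appeared in fewer libraries and in different combinations. At least 1 of the 6 was detected in 14 cells (48.3%, interval 29.4% to 67.5%), which were 13 of the 17 cells with at least 5 rod genes and 1 of the other 12, OFF S alpha 15. *Pde6h*, the inhibitory subunit of the cone phosphodiesterase, was detected in 12 cells (6.29 to 775162, median 148). *Opn1mw*, the middle-wavelength opsin, was detected in 11 cells, *Arr3*, the cone arrestin, in 9 and *Gnat2*, the cone transducin alpha subunit, in 7. *Opn1sw*, the short-wavelength opsin, was found in ON vOS 9, ON alpha 13 and EyeWire 6sw 21, and *Cngb3*, a cone channel subunit, in EyeWire 6sw 21 and PixON 27. All 3 cells with *Opn1sw* also had *Opn1mw*. EyeWire 6sw 21 was the only cell with all 6.

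The mean pairwise r among cone genes was 0.41, from 0.0056 for *Cngb3* with *Opn1mw* to 0.78 for *Opn1mw* with *Pde6h*. ON vOS 9 had *Opn1mw* at 172089 and *Pde6h* at 259834, but *Arr3* at 12.8 and *Gnat2* at 37.6. SbC 26 had *Arr3* at 213342 and *Gnat2* at 257518, the highest of any cell for both. Rod-rich libraries could lack cone genes altogether: OFF S alpha 16, with a rod score of 15.48, and ON DS 1, with 16.10, had 0 of 6. The cone score had r = 0.81 with the rod score (rho = 0.84), 0.76 without the 7 cells tied at the floor of the rod score, which were the farthest from its median, 0.75 within the 17 cells and 0.64 within the other 12. On linear signals r over all cells was 0.91. Within the 12, only OFF S alpha 15 and OFF T alpha 17 had a cone score above the floor, so the r of 0.64 rests on these cells. *Arr3* differed between its probe sets: a second one was detected in 6 cells, 1 of them shared with the one read here.

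Genes listed for Müller glia did not form a block. *Clu*, the secreted chaperone clusterin, was detected in 27 cells, with signals from 66.5 to 308418 and a median of 102470. *Dkk3*, a secreted Dickkopf protein, was detected in 21 cells (4.16 to 101252, median 23681). *Glul*, glutamine synthetase, was detected in 11 cells, *Rlbp1*, the retinaldehyde-binding protein of Müller glia and pigment epithelium, in 11, and *Vim*, the filament protein vimentin, in 10. A second probe set of *Glul* was detected in 3 cells, 2 of them shared with the one read here. *Slc1a3*, a glutamate transporter listed for Müller glia, was detected only in ON-OFF DS 5, by 1 of its 6 probe sets. *Aqp4*, a water channel of Müller glia, was detected only in ON S non-alpha 28. *Apoe*, apolipoprotein E, reached at most 426, in ON DS 1, and was detected in no cell. Of 8 further Müller genes with a value, *Kcnj10*, the potassium channel, and *Sox9* and *Sox2*, transcription factors, were in no cell. *Dbi*, an acyl-CoA-binding protein, was in 19 cells, *Abca8a*, a lipid transporter, in 6, *Gpr37*, an orphan receptor, in 4, *Rgr*, a retinal-binding opsin, in 2 and *Car14*, a carbonic anhydrase, in 1. The list thus ran from genes in most libraries to genes in 1 or no library.

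*Clu* and *Dkk3* occurred together in 21 cells, including libraries with no rod gene. Of the other 6 Müller genes, none was detected in 9 cells and at least 3 in 4 cells. ON S non-alpha 28 held 6 of the 8, with *Glul* at 73730, *Rlbp1* at 105846 and *Aqp4* at 10088, the highest signals of these genes over all cells. The mean pairwise r among the 8 genes was 0.14, with *Dkk3* and *Vim* the closest pair at 0.49. The Müller score rose with the number of detected genes (r = 0.60 over the 29 cells), whereas that r was -0.19 for the rod score and -0.10 for the cone score. Given that number, the partial r of the Müller score was 0.15 with the rod score and 0.22 with the cone score. With the score of RGC genes it was -0.31. Without that step these r were 0.0029, 0.12 and -0.14. Beyond these values the part of depth in the Müller score was not tested.

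Rod and Müller scores showed no correlation over the 29 cells. Their r was 0.0029 (rho = -0.0060), -0.15 without the 7 cells at the floor of the rod score, -0.20 within the 17 cells with at least 5 rod genes and 0.07 within the other 12, and leaving out single cells moved it from -0.12 to 0.12. On linear signals r was -0.26. The cone and Müller scores had r = 0.12 (rho = 0.17) over all cells, 0.10 within the 17 cells, 0.56 within the other 12 and -0.26 on linear signals. Without the 2 cells farthest from the median cone score, r over the remaining cells was 0.25. Within the 12, only OFF S alpha 15 (9.08) and OFF T alpha 17 (9.05) had a cone score above the floor of 8.55. The r of 0.56 rests on these cells.

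Single Müller genes went apart. *Clu* had r = -0.46 with the rod score, and in the 3 cells where it was lowest, ON vOS 9 (66.5), SbC 26 (1732) and OFF high speed selective 23 (3486), the rod score lay between 18.01 and 19.21. Without these 3 cells r was -0.17. *Rlbp1* had r = 0.40 with the rod score and 0.51 with the cone score, and was detected in 9 of the 17 cells and in 2 of the other 12. Within the 17 cells its r with the rod score was 0.11. *Glul*, *Dkk3* and *Vim* had r of -0.08, -0.10 and 0.12 with the rod score.

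**Figure D2:**
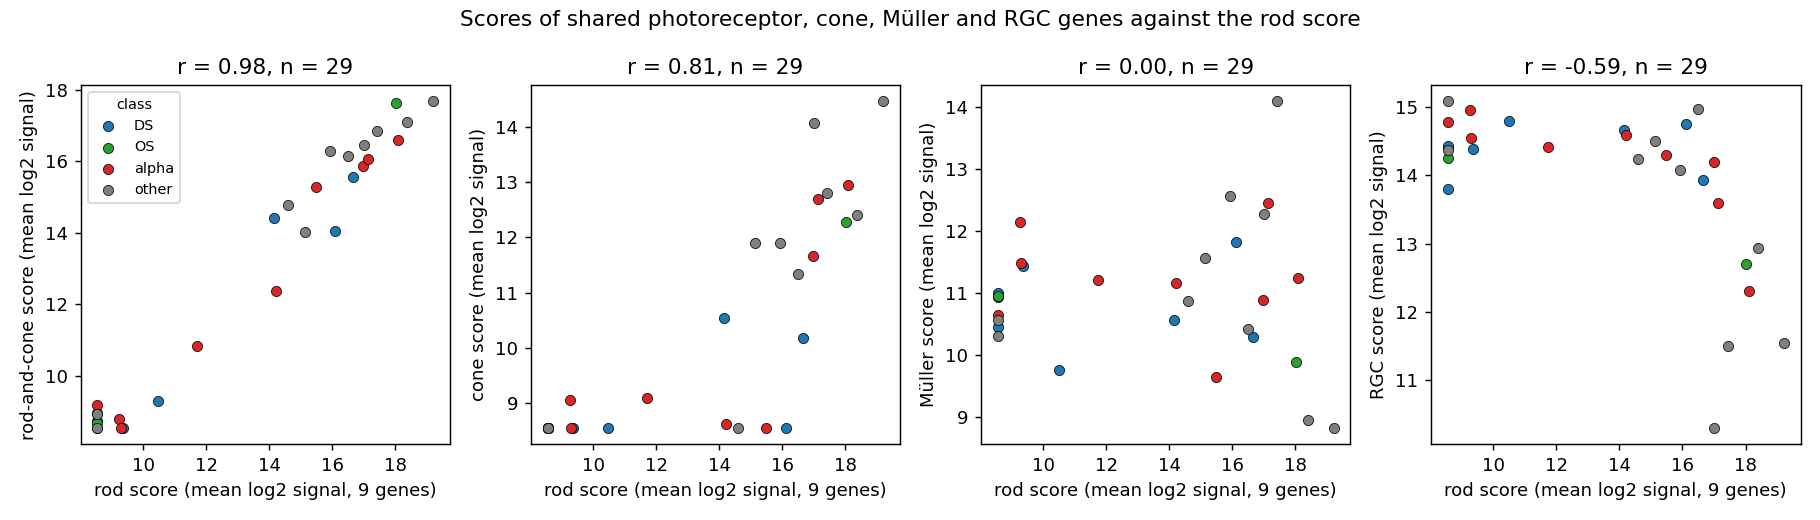
Scores (mean log2 signal of each list) of the rod-and-cone, cone, Müller and RGC genes on the vertical axes against the rod score on the horizontal axes, 1 point per cell, colored by class. The shared score follows a line (r = 0.98), the cone score spreads above a rod score of 14, the Müller score shows no slope, and RGC scores below 13.80 occur only at rod scores above the 16.99 of ON alpha 13.

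Ganglion cell genes were lower where photoreceptor genes were higher. *Sncg*, synuclein gamma, and *Uchl1*, a neuronal ubiquitin hydrolase, were detected in all 29 cells, and 5 to 14 of the 15 RGC genes with a value were detected per cell. The RGC score had r = -0.59 with the rod score (rho = -0.62), and -0.60 without the 7 cells at the floor of the rod score. On linear signals it was -0.31. With the cone score r was -0.78 (rho = -0.61), and -0.69 without SbC 26 and EyeWire 6sw 21, the cells farthest from the median cone score. For the rod and RGC scores r was -0.68 within the 17 cells and 0.11 within the other 12. The 12 were set apart by few rod genes, and their rod scores ran only from 8.55 to 11.72 with the median at the floor. The r within them could thus show little of the relation. In the 12 cells the RGC score ran from 13.80 to 15.09, and in the 17 from 10.30 to 14.98. These ranges overlapped for most cells.

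By gene, *Rbpms*, an RNA-binding protein that marks RGCs, had the lowest r with the rod score among the RGC genes, -0.69. Its signal had a median of 167 in the 17 cells and of 7025 in the other 12, and it was detected in 5 of the 17 and 10 of the 12. This holds for the probe set read here. The other probe sets of *Rbpms* were detected in 1, 4 and 4 cells and had r of 0.25, 0.09 and 0.12 with it. *Slc17a6*, which loads glutamate into synaptic vesicles, was found in 12 of the 17 and 11 of the 12 (r = -0.44), and *Pou4f1*, a transcription factor of RGCs, in 4 of the 17 and 7 of the 12 (r = -0.46). *Tubb3*, a neuronal tubulin, and *Nefh*, the heavy neurofilament, had r of -0.04 and -0.10. Of the 14 RGC genes detected in at least 3 cells 8 had r of -0.3 or below with the rod score, against 15.3% of the 7113 genes detected that often, and none had r of 0.3 or above.

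Seen from the members, 26 of the 30 that were detected in at least 3 cells had r of -0.3 or below with the RGC score, against 10.6% of the 7113 genes. They were all 9 rod genes, all 11 shared genes, 5 cone genes and, of the Müller genes, *Rlbp1* (r = -0.48). The other members among the 30 were *Clu* (r = 0.41), *Dkk3* (0.16), *Glul* (-0.14) and *Vim* (-0.18). *Cngb3*, *Slc1a3*, *Aqp4* and *Apoe* were in fewer than 3 cells and so were not among the 30. On linear signals the count was 16. The Müller score had r = -0.14 with the RGC score (rho = -0.03), which moved between -0.33 without SbC 26 and 0.10 without ON S non-alpha 28. On linear signals it was 0.22, and the partial r given the number of detected genes was -0.31.

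The 3 libraries with the lowest RGC scores differed in what else they held. EyeWire 6sw 21 had 5 of 15 RGC genes and an RGC score of 10.30, ON S non-alpha 28 had 7 and 11.50, and SbC 26 had 6 and 11.55. All 3 had all 9 rod genes, but they differed in the Müller genes, with 5, 6 and 0 of 8. EyeWire 6sw 21 also had 6 of 7 microglia genes, and EyeWire 6sw 21 and ON S non-alpha 28 had 5 of 8 bipolar genes each, where the medians over the 29 cells were 0 and 1. In both cells the bipolar genes included *Isl1*, which is on the RGC list as well and is counted in both. They also included *Gnao1*, which was detected in 14 of the 29 cells. OFF S alpha 14, which had 11 of 15 RGC genes, had 4 of the 8 bipolar genes. No cell had more than 4 of 10 amacrine, 2 of 6 horizontal, 2 of 4 astrocyte or 2 of 5 pigment epithelium genes. The part of these cell types in the results was not tested. Without these 3 cells r of the rod and RGC scores was -0.55 and of the rod and cone scores 0.79, while that of the Müller and RGC scores turned to 0.19.

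In the 4 cells with the highest rod scores the 20 rod and shared genes made up 2.49% to 3.11% of the summed signal of the array, and the RGC genes 0.15% to 0.43%. In the 12 cells with fewer than 5 rod genes these shares were 0.00063% to 0.23% and 0.67% to 1.06%. The RGC share did not follow this order in the 13 remaining cells. There it ran from 0.044% in EyeWire 6sw 21 to 1.31% in OFF T alpha 19, beyond both other ranges, and the photoreceptor share from 0.57% to 2.13%. The same 4 cells had 1182 to 2023 detected genes, and within the 17 cells the rod score had r = -0.48 with the number of detected genes. Given that number, the partial r of the rod and RGC scores over the 29 cells was -0.57. Since all arrays were scaled to a common mean, less RGC RNA and a larger share of photoreceptor RNA cannot be told apart.

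Photoreceptor RNA was found in each class of RGC. At least 5 rod genes were detected in 3 of 8 DS cells (37.5%, interval 8.52% to 75.5%), 1 of 2 OS cells, 5 of 9 alpha cells (55.6%, interval 21.2% to 86.3%) and 8 of 10 other cells (80.0%, interval 44.4% to 97.5%). Cells of one subtype could differ from background to high signal. *Gnat1* in the 4 ON DS cells, by number, was 456392, 41.4, 311488 and 3.77. In the 4 ON-OFF DS cells it was 15.2, 2080, 154345 and 67957. The first subtype was split evenly, and in the second ON-OFF DS 7 stood above the others.

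*Gnat1* in OFF S alpha 14, 15, 16 and 18 was 314497, 94834, 459866 and 739952, so that all 4 were above the threshold. In OFF T alpha 17, 19 and 20 it was 243, 163699 and 11.3, and in ON alpha 12 and 13 it was 189 and 290734. The ON vOS cell had 694494 and the ON hOS cell 17.2. The SbC cells had 261665 and 1252820. Of the subtypes with more than 1 cell, SbC was the one in which every library had at least 5 rod genes. The OFF S alpha cells were mixed, since OFF S alpha 15 had 4 rod genes. By polarity, at least 5 rod genes were found in 4 of 8 ON cells, 4 of 7 OFF cells and 1 of 4 ON-OFF cells of the DS, OS and alpha classes.

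**Figure D3:**
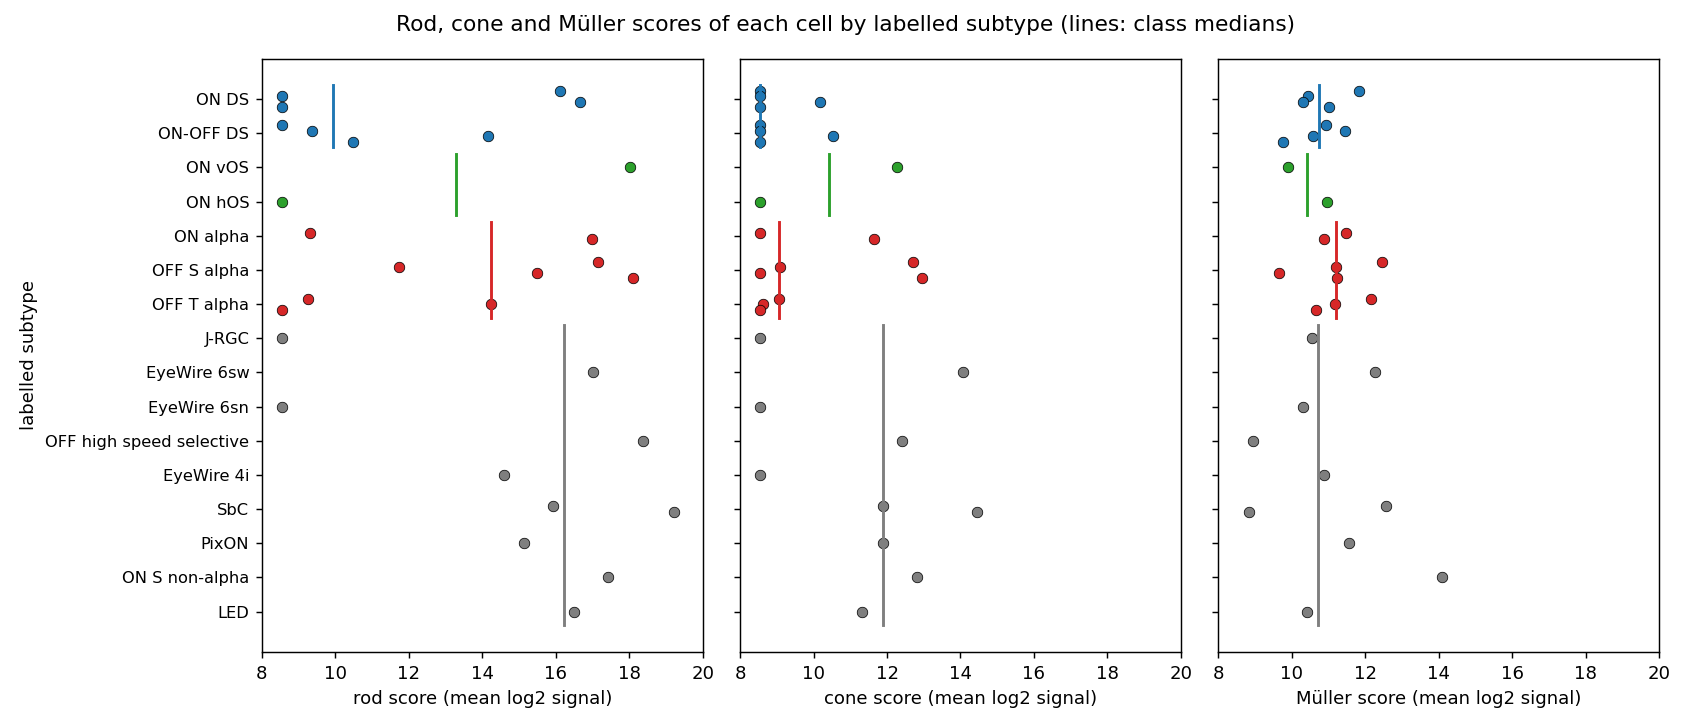
Rod, cone and Müller scores (horizontal axes, mean log2 signal) of each cell by labelled subtype (vertical axis), with class medians as vertical lines (DS blue, OS green, alpha red, other gray). Rod scores of DS cells run from 8.55 to 16.66 and of alpha cells from 8.55 to 18.10, so the classes overlap, and Müller scores differ little between classes.

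The median rod score was 9.92 in DS cells (8.55 to 16.66, n = 8), 14.22 in alpha cells (8.55 to 18.10, n = 9) and 16.22 in the other cells (8.55 to 19.21, n = 10). Alpha and DS medians differed by 4.30 on the log2 scale, within ranges that overlapped almost fully. The Müller medians were 11.22 in alpha and 10.76 in DS cells, a difference of 0.46. Of the 30 members detected in at least 3 cells, 15 had a median log2 signal at least 1 higher in alpha than in DS cells and none at least 1 lower. Among all 7113 genes these shares were 18.9% and 15.2%. The 15 were 5 rod genes, 8 shared genes and, of the Müller genes, *Dkk3* (2.65 higher) and *Vim* (3.75 higher). Leaving out ON alpha 12 or OFF T alpha 20 brought the count to 23, and leaving out ON DS 2 brought it to 13. *Dkk3* was detected in 8 of 9 alpha and 4 of 8 DS cells, and *Vim* in 5 of 9 and 2 of 8.

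For 5 of the 6 cone genes both medians were at the floor, so that this measure could show no difference, and *Opn1mw* was 0.41 higher in alpha cells. *Opn1mw* was detected in 4 of 9 alpha cells and 1 of 8 DS cells, and *Arr3* and *Gnat2* were each in 2 alpha cells and no DS cell. *Clu* was detected in all 9 alpha cells and all 8 DS cells, with median signals of 130391 and 120703.

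Against the whole array, the members were common. In at least 15 of the 29 cells 18 of the 34 members were detected, against 10.6% of all 18194 genes. They were 7 rod genes, 9 shared genes, *Clu* and *Dkk3*. The members were chosen with earlier results of these data known, so this count describes the list. Of 26 photoreceptor genes outside the members, 5 were detected that often. Among the 30 members in at least 3 cells, 24 had r of 0.5 or above with the rod score (for rod genes, with the mean of the other 8), against 3.16% of the 7113 genes. They were the 20 rod and shared genes and 4 cone genes. *Opn1sw* (r = 0.34) and the 5 Müller genes did not reach it. Every signal of the 17 cells lay above every signal of the other 12 for 5 of the 11 shared genes, *Rcvrn*, *Rbp3*, *Prom1*, *Prcd* and *Aipl1*. This held for 13 of the 7113 genes (0.183%), and the 13 include these 5 and the 5 rod genes. For *Aipl1* it rests on a signal under the threshold, 1222 in ON DS 1, against at most 482 in the 12 cells.

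Other photoreceptor genes moved with the members. Of 26 further genes with a value, 19 were in at least 3 cells. Of these, 15 had r of 0.5 or above with the rod score, against 3.16% of the 7113 genes. *Abca4*, the outer segment transporter of retinoids, was detected in 17 cells (r = 0.91), and *Tulp1*, a protein of photoreceptor transport, in 16 (r = 0.89). *Cngb1*, the partner subunit of the rod channel, was detected in 14 cells (r = 0.85). *Prph2*, the disc rim protein, was found only in OFF high speed selective 23, at 70635. *Gngt1*, with a highest signal of 2279.5, *Ppef2* and *Gucy2e*, a photoreceptor guanylate cyclase, were in no cell.

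Ranked over all genes that are not members, the highest r with the rod score was that of *Vtn*, vitronectin (r = 0.97, rho = 0.94), detected in all 17 cells with at least 5 rod genes and in none of the other 12. *Vtn* had been listed among vascular genes, of which *Cldn5*, *Pecam1*, *Cdh5* and *Pdgfrb* were in no cell, *Rgs5* in 1 and *Kcnj8* in 2. *Agpat3*, an acyltransferase of phospholipid synthesis, followed with 0.95, then *Esrrb*, an orphan nuclear receptor, with 0.92 and *Rtbdn*, the riboflavin-binding retbindin, with 0.91. *A930003A15Rik* had 0.91, *Scarb1*, a lipoprotein receptor, 0.89, and *Kcnj14*, a potassium channel, and *Drd4*, a dopamine receptor of photoreceptors, 0.87 each. At the other end were *Ehd3* (-0.72), *Rnf130* (-0.71), *Tmem151a* (-0.70), *Arhgap44* (-0.69) and *Rbpms*. *Rnf130* was detected in all 12 cells with fewer than 5 rod genes and in 7 of the 17.

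**Figure D4:**
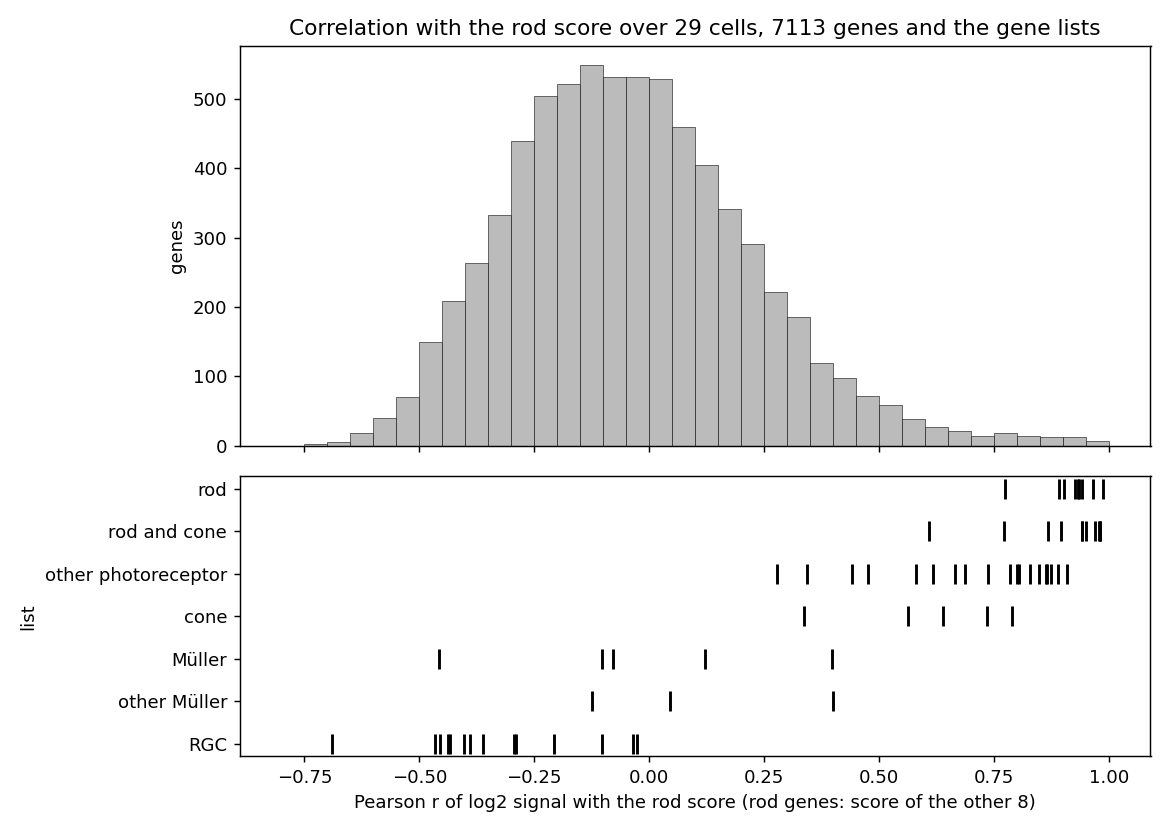
Number of genes (upper panel, vertical axis) by Pearson r of their log2 signal with the rod score (horizontal axis) for the 7113 genes detected in at least 3 cells, and r of each gene of the lists in at least 3 cells (lower panel, 1 tick per gene). Rod and shared genes lie at 0.61 or above, cone genes reach down to 0.34, Müller genes run from -0.46 to 0.40, and the 14 RGC genes lie below 0.

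The highest r with the Müller score reached lower values. *Plaat3*, a phospholipase, had r = 0.70, but rho was 0.33 and it was detected in 3 cells. *Prpf8*, a splicing factor, had 0.68, *Traf3ip3* 0.65, and *Abl2*, a tyrosine kinase, and *Nfx1* 0.65 each. None of the 5 was on a Müller list, and *Abl2* and *Nfx1* had r of 0.57 and 0.56 with the number of detected genes.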

How the data were processed

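The authors aspirated single RGCs, amplified their cDNA over 35 PCR cycles, hybridized every library to its own Affymetrix mouse array and deposited linear MAS5 intensity values (version not given in the sources used here), whose 2% trimmed mean was 1500 on every array. Of 45101 probe sets, 34958 name a single gene and cover 18194 genes. A further 932 with several genes and 9211 unnamed ones were not used. Where a gene had several, the probe set of highest mean log2 signal was read. The 34 members have 58 probe sets. The members and gene lists were chosen with earlier results of these data known. Named were the members, the genes of the RGC, other photoreceptor and other Müller lists, the 10 highest and 5 lowest correlates of the rod score and the 5 highest of the Müller score, among genes detected in at least 3 cells. Vascular genes were named after their values were seen, as were the examples within each list. Lists of bipolar, amacrine, horizontal, astrocyte, microglia, vascular and pigment epithelium genes were counted per cell.

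Correlations over cells are Pearson r and Spearman rho without p-values. The number of arrays sets the precision, and intervals of shares cover counting error only. Alternatives changed the threshold (1500 or 6000), the floor (lowered to 3 or raised to 1500), the scale (linear), the correlation (rank, or partial given detected genes), the normalization (quantile), the probe sets (any or their mean) and the cells (each left out in turn, and SbC 26, whose detected genes were under 50% of the median, left out). Omitting the 3 cells of lowest RGC score, those of lowest *Clu* signal, or the 7 at the floor of the rod score was added after seeing the data. The ranking of correlates was run on shuffled signals with strongly correlated genes planted in them. That checks the calculation only and says nothing of the genes named here. Python 3.11.15, numpy 2.4.6, scipy 1.17.1, pandas 2.3.3 and matplotlib 3.10.9 were used.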

Additional observations from a re-analysis of the deposited data

Results flagged for a closer look

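In groups of 4 to 10 cells, a score was set apart when its gap to the nearest other cell filled most of the range of the group. Of 30 groups of scores 3 were set apart. Chance does this in about 1 group in 20 where values vary freely, which does not hold for either cone score below: the other cells were at the floor, and any cell above it then fills the whole range. ON-OFF DS 7 had a rod-and-cone score of 14.42, where the other 3 ON-OFF DS cells lay between 8.55 and 9.29. These 3 cells were at or near the floor as well, with 0 or 1 shared genes detected, so the rate does not carry over to this score either. The cone score of ON-OFF DS 7, 10.54, also stood apart from the others, which were at the floor of 8.55. ON DS 3 had a cone score of 10.19, and the other 3 ON DS cells were at 8.55.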

How the results depend on the processing

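The counts of cells with at least 5 rod genes (14 to 18) and of members detected in at least 15 cells (17 to 20) stayed within 1.5 times their main value under all alternatives run, and the mean pairwise r among rod genes stayed between 0.83 and 0.89. On linear signals the relations between scores moved: r was 0.91 for rod with cone, -0.26 for rod with Müller, -0.26 for cone with Müller, -0.31 for rod with RGC and 0.22 for Müller with RGC, and 16 members had r of -0.3 or below with the RGC score. The cause was not tested. The r of Müller with RGC also changed sign without the 3 cells with the lowest RGC score (0.19). Without the 3 cells with the lowest *Clu* signal, r of *Clu* with the rod score was -0.17.

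Leaving out each cell in turn gave 16 to 17 cells, 18 to 20 members, 0.85 to 0.87 for the mean pairwise r, 0.79 to 0.85 for rod with cone, -0.12 to 0.12 for rod with Müller, -0.02 to 0.32 for cone with Müller, -0.63 to -0.54 for rod with RGC and -0.33 to 0.10 for Müller with RGC. It gave 25 to 26 members with r of -0.3 or below with the RGC score, an alpha minus DS difference of 3.05 to 4.93 for the rod score and 0.28 to 0.65 for the Müller score, and 13 to 23 members at least 1 log2 unit higher in alpha cells. No paired analysis was possible because each cell carries its own number in the labels and no test was made. Signals under the threshold do not show that a transcript was absent, since a library of a single cell can lose it.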
